A study of Homo sapiens with 4 samples.

Results

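Alcohol dehydrogenases, aldehyde dehydrogenases, retinol dehydrogenases and the related short-chain dehydrogenases of the DHRS group were examined in Huh7, an established human hepatocellular carcinoma line. The 2 populations compared were Huh7 cells carrying CD133 on their surface (CD133+) and Huh7 cells lacking it (CD133-), which had been sorted apart by flow cytometry. CD133 is a membrane protein encoded by PROM1, and it is used to mark tumour-initiating cells in liver cancer. No treatment, time or genotype separates the groups in the labels, and both come from the same line. Each population was measured on 1 expression array, whose signals were summarized once by RMA and once by MAS5. No array was repeated, so differences have no replicate check and no p-value, and "higher" and "lower" describe these arrays only.

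Members were taken by a rule on gene names, with no filter on their values, but the choice was made with earlier results of these data known. A probe set, the group of short oligonucleotides that reports on a transcript, was taken when its platform annotation gave a single gene symbol of the ADH1 to ADH7, ALDH, RDH or DHRS series. This gave 91 of the 54675 probe sets on the array, for 46 of the 19775 named genes. Of the 46, 43 are the enzyme genes and 3 are antisense RNAs that carry an enzyme's name (ALDH1A2-AS1, ALDH1L1-AS2 and DHRS4-AS1). Of the 91 probe sets, 44 are of a kind that can match several transcripts.

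These enzymes act in sequence on alcohols and aldehydes. Alcohol dehydrogenases oxidize ethanol and other alcohols to aldehydes, and aldehyde dehydrogenases oxidize aldehydes to acids, among them acetaldehyde, lipid aldehydes and the semialdehydes formed when liver breaks down amino acids. In the retinoid branch, RDH and DHRS enzymes convert retinol and retinal into each other, and the ALDH1A enzymes turn retinal into retinoic acid, the ligand of the retinoic acid receptors. High aldehyde dehydrogenase activity, often credited to ALDH1A1, is used alongside surface proteins to isolate stem-like cells from tumours.

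Unless MAS5 is mentioned, values are on the RMA log2 scale, and each difference is the CD133+ value minus the CD133- value. A probe set was counted as measured when the brighter of its RMA values exceeded 4.86, the array-wide median of such brighter values, a limit that stands in for the detection calls, which were not used here. Where a gene has several probe sets, the one with the highest RMA mean stands for it. Of the 46 genes, 36 lay above this floor, and 34 did so on both arrays. Of all 19775 named genes, 12899 lay above it, and 12392 did so on both arrays. Among the 36, ALDH3A1, DHRS2 and RDH16 were below the MAS5 floor of 91.8, set in the same way, on both arrays. The scatter between differences shown by probe sets of the same gene was the only available measure of error within the arrays. Its SD was 0.16 over the 35 pairs within these genes and 0.17 over 16955 pairs among all genes. This scatter holds no variation between sorts or cultures. Since the probe sets of a gene share the same arrays, it also leaves out error in labelling or hybridization common to them.

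The labels were checked first. PROM1 stood at 10.49 in CD133+ cells, against 5.33 in CD133- cells, in the direction of the sort. All 9 hepatocyte markers with a probe set of their own lay above the floor, with summed MAS5 signals of 340579 in CD133+ cells and 344713 in CD133- cells and a median difference of -0.06. Of 5 blood cell markers 4 lay above the floor, namely LYZ, CD14, CD3E and HBB. The MAS5 signals of CD3E, 62.3 in CD133+ cells and 28.3 in CD133- cells, were below the MAS5 floor of 91.8. HBB had the same RMA value, 5.33, on both arrays. The sums over the 5 were 13116 in CD133+ cells and 13872.5 in CD133- cells, mostly from LYZ, at 12748 and 13466. The pan-leukocyte gene PTPRC was the one below the RMA floor, with MAS5 signals of only 3.02 in CD133+ cells and 2.24 in CD133- cells. Of 11 endothelial and stromal markers 6 lay above the floor, with sums of 3155 in CD133+ cells and 1778 in CD133- cells. The endothelial genes CDH5 and KDR were below the floor, whereas PECAM1 and VWF lay above it, with differences of 0.23 and 0.02. VWF was near the floor, at 4.89 in CD133+ cells and 4.87 in CD133- cells. Its MAS5 signals, 21.1 in CD133+ cells and 47.1 in CD133- cells, were below the MAS5 floor. The matrix genes LUM and COL1A2 were at least 2-fold higher in CD133+ cells, though the other LUM probe set was below the floor on both arrays. COL1A1 differed by 0.04 and PDGFRB by -0.25, and COL3A1, DCN and ACTA2 were below the floor. Of 8 bile duct and intestine markers 7 lay above the floor, with sums of 25709 in CD133+ cells and 10398 in CD133- cells. SI, KRT19 and EPCAM were at least 2-fold higher in CD133+ cells. CDX2, VIL1, KRT7 and CDX1 differed by 0.69, 0.38, 0.08 and -0.04, and MUC2 was below the floor. Among all genes above the floor, 1.65% were at least 2-fold higher in CD133+ cells. The part of such cell-type differences in the values below was not tested, and in a sorted bulk population fewer cells with a transcript cannot be told apart from less transcript per cell.

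The dehydrogenase genes did not move together. In the values as measured, 1 gene was at least 2-fold higher in CD133+ cells (ADH1C) and 1 was at least 2-fold lower (ADH6), whereas among all 12899 genes above the floor 1.65% were that much higher and 0.116% that much lower. The CD133- value of ADH1C was below the floor. With the floor in place of values below it, ADH1C was at least 1.77-fold higher, so that 0 of the 36 genes were 2-fold higher, against 1.33% of all measured genes, and ADH6 alone was 2-fold lower, against 0.116%. At least 1.5-fold, 4 genes were higher (ADH1C, DHRS11, RDH10 and ALDH3B1), against a background of 3.67%, and 3 were lower (ADH6, ALDH4A1 and ALDH1L1), against a background of 1.01%. Together these 7 genes are 19.4% of the 36 measured, and 4.68% of all measured genes differed that much. In all, 18 of the 36 were higher, 17 were lower and ALDH3A1 had equal values. The median difference was 0.02, against -0.01 over all measured genes. Their outer percentiles lay further from 0 than those of all measured genes. The 5th and 95th percentiles of the difference were -0.74 and 0.83 for the dehydrogenases, against -0.34 and 0.48 for all measured genes. A difference of at least 0.5 in size was found in 8 of the 36 genes, or 22.2%, and in 6.23% of all measured genes. These are counts on 1 pair of arrays, and the smallest of them rest on single genes. The members were chosen with earlier results of these data known, so the counts and percentiles are not read as an excess.

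**Figure D1:**
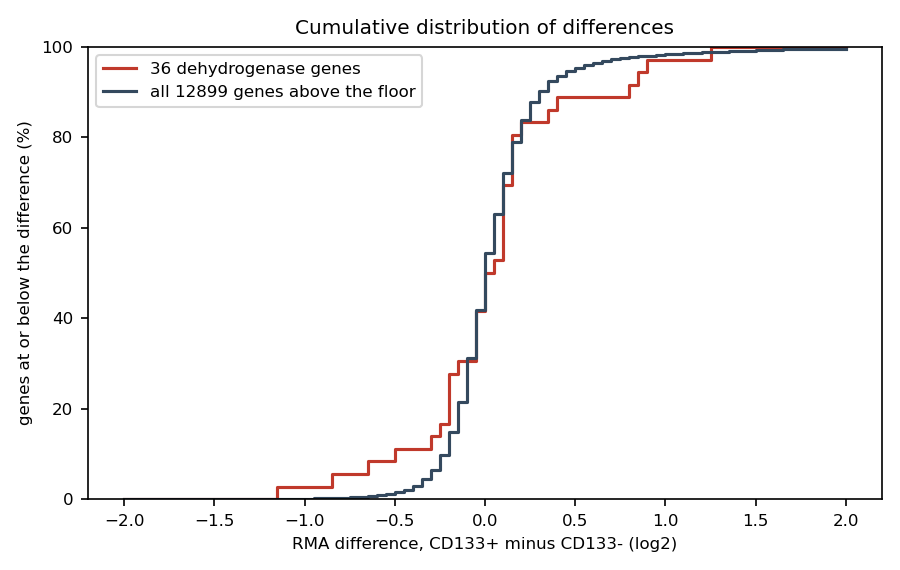
Cumulative percentage of genes (vertical axis) at or below an RMA difference, CD133+ minus CD133- on the log2 scale (horizontal axis), for the 36 dehydrogenase genes above the brightness floor and for all 12899 such genes. The curves cross near 0, with medians of 0.02 and -0.01, and 11.1% of the dehydrogenases but 1.56% of all genes lie at or below -0.5, while 88.9% and 95.3% lie at or below 0.5.

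**Figure D2:**
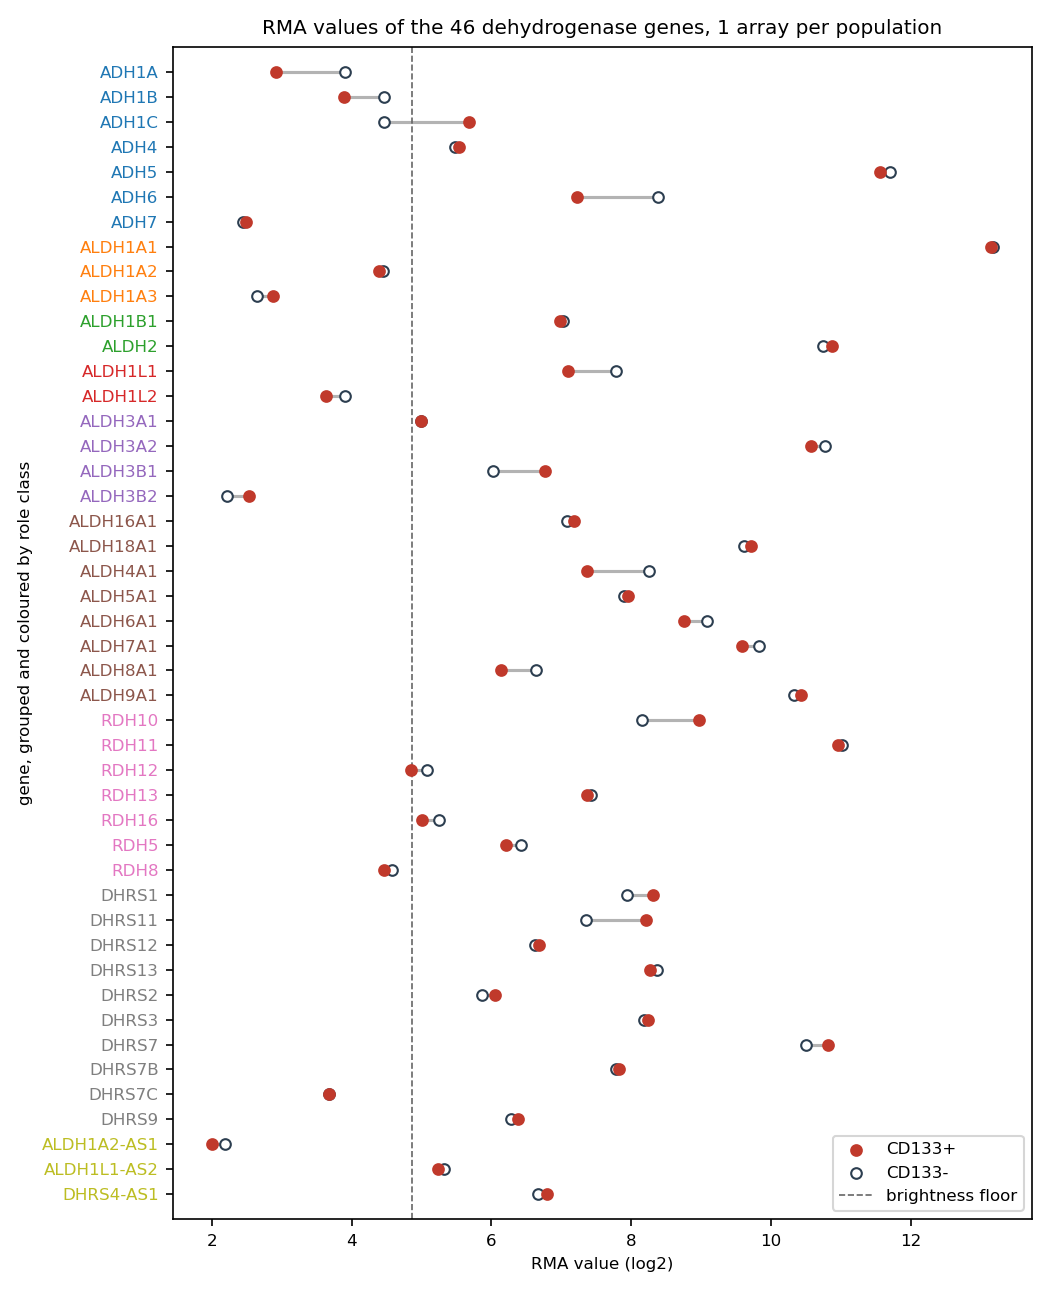
RMA values (horizontal axis, log2) of each of the 46 genes (vertical axis, coloured by role class) on the CD133+ array (filled) and on the CD133- array (open), with a line joining them and the brightness floor of 4.86 dashed. Most pairs lie close together. ADH6, ALDH4A1 and ALDH1L1 lie lower and ADH1C, ALDH3B1, RDH10 and DHRS11 higher on the CD133+ array, and no order between genes should be read, since probe sets differ in brightness.

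Among the alcohol dehydrogenases, ADH6 was lower and ADH1C higher in CD133+ cells. ADH6, an alcohol dehydrogenase of liver with poorly known substrates, had an RMA value of 7.22 in CD133+ cells and 8.39 in CD133- cells, a difference of -1.16, or 2.24-fold lower. Its MAS5 signals were 511 in CD133+ cells and 1286 in CD133- cells. The other ADH6 probe set had 6.32 in CD133+ cells and 7.22 in CD133- cells, a difference of -0.90. Both probe sets were therefore lower in CD133+ cells on both scales, by several times the scatter between probe sets. Among the 12899 measured genes, ADH6 had the 9th lowest difference. Each can match several transcripts by its design type.

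ADH1C, a class I enzyme of ethanol oxidation, went the other way. It had an RMA value of 5.68 in CD133+ cells and 4.47 in CD133- cells, a difference of 1.21. Since the value in CD133- cells was under the floor, ADH1C is given as at least 1.77-fold higher in CD133+ cells. Its MAS5 signals were 346 in CD133+ cells and 97.4 in CD133- cells, a 3.55-fold difference. ADH1C is reported by a single probe set, so there is no second one to set beside it.

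The other class I genes were dim on both arrays. ADH1A had RMA values of 2.91 in CD133+ cells and 3.90 in CD133- cells, both below the floor, and MAS5 signals of 50.3 and 117 in CD133+ and CD133- cells. The brightest of the 4 ADH1B probe sets had 3.90 in CD133+ cells and 4.46 in CD133- cells, with MAS5 signals of 39.2 and 119, and the 4 differences ranged from -0.56 to 0.28. No RMA fold is given for ADH1A or ADH1B, since neither rose above the RMA floor in either population. The 3 class I genes are close copies of one another, and a probe set of one may take up transcripts of another.

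The remaining alcohol dehydrogenases differed little. ADH5, the class III enzyme that oxidizes glutathione-bound formaldehyde and is present in nearly all cells, had 11.55 in CD133+ cells and 11.70 in CD133- cells, and its probe sets differed by -0.15 and -0.13. ADH4, a class II liver enzyme that also takes retinol, had 5.53 in CD133+ cells and 5.48 in CD133- cells on the only one of its 4 probe sets above the floor. On that probe set the MAS5 signals ran the other way, at 107 in CD133+ cells and 151 in CD133- cells, and it is of the kind open to related transcripts. ADH7, the class IV enzyme of stomach and oesophagus, lay below the floor at 2.49 and 2.45 in CD133+ and CD133- cells.

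The ADH genes lie side by side on chromosome 4, in the order ADH5, ADH4, ADH6, ADH1A, ADH1B, ADH1C and ADH7 in the RefSeq annotation of GRCh38.p14. Their differences do not follow that order as a block. ADH6, ADH1A and ADH1B, which are neighbours, had differences of -1.16, -0.98 and -0.56, of which those of ADH1A and ADH1B rest on values below the floor. ADH1C, the next gene in the row, had a difference of 1.21, and the outer genes ADH5 and ADH7 had -0.15 and 0.04.

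**Figure D3:**
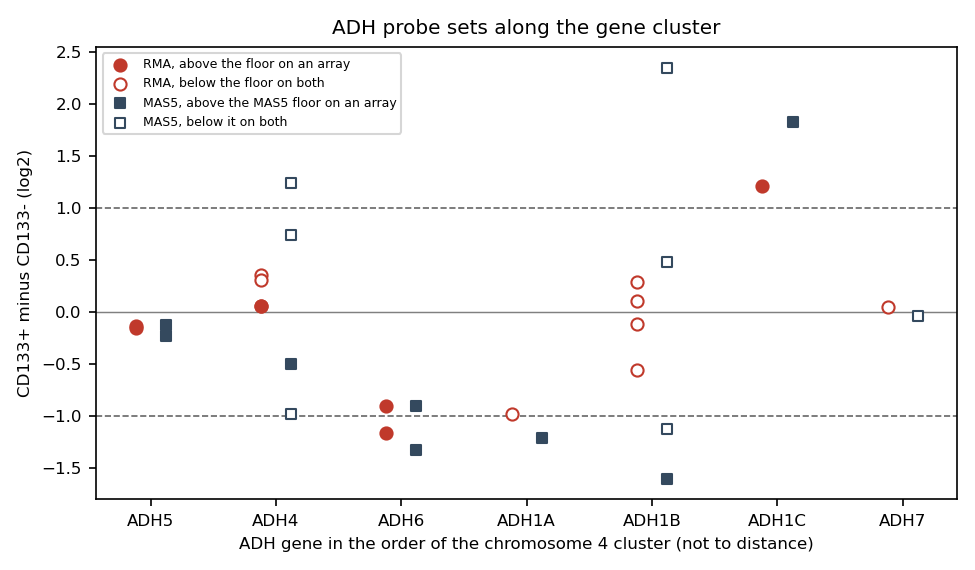
Difference CD133+ minus CD133- on the log2 scale (vertical axis) of each ADH probe set, with genes in their order on chromosome 4 (horizontal axis), by RMA (circles) and MAS5 (squares), filled where at least 1 array lay above the floor of that scale. ADH6 lies near or below -1 with both probe sets on both scales, ADH1C lies above 1 on both, and the open symbols of ADH1B and ADH4 scatter on both sides of 0.

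Because the cluster holds ADH6, lower in CD133+ cells, and ADH1C, higher in CD133+ cells, the 250 bases before the RefSeq start of ADH6 and of the class I genes are shown, 5′ to 3′ along each gene, from RefSeq on GRCh38.p14. Capitals mark the letters CCAAT on either strand, which read ATTGG where they lie on the opposite strand.
ADH6 (chr4:99219247-99219496, minus strand): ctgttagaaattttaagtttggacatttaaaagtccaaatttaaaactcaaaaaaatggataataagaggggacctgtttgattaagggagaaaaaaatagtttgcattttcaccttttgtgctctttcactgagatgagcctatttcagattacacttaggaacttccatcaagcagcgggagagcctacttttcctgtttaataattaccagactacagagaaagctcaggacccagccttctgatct
ADH1A (chr4:99290986-99291235, minus strand): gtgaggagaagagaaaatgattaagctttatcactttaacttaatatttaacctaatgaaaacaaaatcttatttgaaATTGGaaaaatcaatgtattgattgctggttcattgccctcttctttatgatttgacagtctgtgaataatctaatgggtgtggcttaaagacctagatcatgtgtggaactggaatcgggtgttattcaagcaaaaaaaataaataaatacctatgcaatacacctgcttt
ADH1B (chr4:99321402-99321651, minus strand): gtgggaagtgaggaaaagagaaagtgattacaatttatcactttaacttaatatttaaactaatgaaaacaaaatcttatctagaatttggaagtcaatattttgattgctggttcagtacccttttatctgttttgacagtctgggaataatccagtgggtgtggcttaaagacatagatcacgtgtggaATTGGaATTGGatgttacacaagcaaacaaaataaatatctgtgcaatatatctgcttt
ADH1C (chr4:99352747-99352996, minus strand): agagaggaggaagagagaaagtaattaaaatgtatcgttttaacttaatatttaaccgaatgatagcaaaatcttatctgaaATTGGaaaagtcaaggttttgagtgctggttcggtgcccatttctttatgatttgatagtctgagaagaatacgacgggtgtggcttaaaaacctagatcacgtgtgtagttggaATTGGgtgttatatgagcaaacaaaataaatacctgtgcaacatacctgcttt

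The 3 class I windows were similar to each other, with 81.4% identical positions between ADH1A and ADH1B, 80.7% between ADH1A and ADH1C and 80.3% between ADH1B and ADH1C in global alignments. ADH6 shared 47.8% to 50.9% of positions with them. CCAAT was found in all 3 class I windows, each time on the opposite strand, and not in that of ADH6. Read along the gene, the stretch ATTGG begins at -172 bases from the start in ADH1A, at -59 and -53 in ADH1B and at -168 and -53 in ADH1C. It occurs in 32.0% of the 35116 windows of this length in the table. Other short motifs were searched on both strands and found in none of the 4 windows. The letters TATAAA, the core of the TATA box, are in 10.7% of all windows. The nuclear receptor half-site, with the letters AGGTCA, is in 12.1% of all windows. The letters GTTAAT of the HNF1 half-site are in 6.23% of them. No motif searched is part of another.

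Retinal dehydrogenases, the enzymes that make retinoic acid, showed no difference that could be measured. ALDH1A1 had an RMA value of 13.15 in CD133+ cells and 13.17 in CD133- cells, and MAS5 signals of 33152 and 32978 in CD133+ and CD133- cells. Its difference of -0.02 by RMA and 0.01 by log2 MAS5 is well within the scatter between probe sets of 1 gene, although it has a single probe set. ALDH1A2 had 4.39 in CD133+ cells and 4.45 in CD133- cells, and ALDH1A3 had 2.88 in CD133+ cells and 2.65 in CD133- cells, all below the floor. For ALDH1A2 the MAS5 signals were 71.7 in CD133+ cells and 4.86 in CD133- cells, both below the MAS5 floor of 91.8, so the large ratio between them is not read as a difference.

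The mitochondrial enzymes that clear acetaldehyde were also close. ALDH2, the main acetaldehyde dehydrogenase of liver, had 10.87 in CD133+ cells and 10.74 in CD133- cells, a difference of 0.12. ALDH1B1 had 6.98 in CD133+ cells and 7.02 in CD133- cells, and its second probe set differed by -0.30. By MAS5 the ALDH1B1 signals were 284 in CD133+ cells and 459 in CD133- cells, so its size depended on the summary.

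Several enzymes of folate and amino acid breakdown were lower in CD133+ cells. ALDH1L1, the cytosolic formyltetrahydrofolate dehydrogenase of liver, had 7.09 in CD133+ cells and 7.78 in CD133- cells, a difference of -0.69 (1.61-fold lower), with MAS5 signals of 465 in CD133+ cells and 725 in CD133- cells. Its other probe set differed by only -0.19. Its mitochondrial relative ALDH1L2 was below the floor, at 3.63 in CD133+ cells and 3.91 in CD133- cells.

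ALDH4A1, the mitochondrial enzyme that completes the breakdown of proline to glutamate, had 7.36 in CD133+ cells and 8.25 in CD133- cells. Its difference of -0.89 (1.85-fold lower) was the 26th lowest among the 12899 measured genes, and the other probe set differed by -0.78. By MAS5 its signals were 295 in CD133+ cells and 691 in CD133- cells, which is 2.34-fold lower. ALDH4A1 was thus lower on both probe sets and both scales.

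ALDH8A1, an enzyme of the kynurenine branch of tryptophan breakdown, had 6.14 in CD133+ cells and 6.64 in CD133- cells, a difference of -0.51. ALDH6A1, the methylmalonate semialdehyde dehydrogenase of valine breakdown, had 8.75 in CD133+ cells and 9.09 in CD133- cells, and all 5 of its probe sets were lower, by differences between -0.58 and -0.22. ALDH7A1, the lysine-degrading enzyme antiquitin, had 9.58 in CD133+ cells and 9.83 in CD133- cells, with all 3 probe sets between -0.35 and -0.21.

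The other genes of amino acid and semialdehyde metabolism had slightly higher values in CD133+ cells. ALDH18A1, which catalyses the first steps of proline synthesis and so runs opposite to ALDH4A1, had 9.71 in CD133+ cells and 9.61 in CD133- cells. ALDH9A1, of carnitine synthesis, and ALDH16A1, a member thought to lack catalytic activity, differed by 0.09 and 0.10. The values of ALDH16A1 were 7.18 in CD133+ cells and 7.07 in CD133- cells. ALDH5A1, the succinic semialdehyde dehydrogenase of GABA breakdown, differed by 0.05, and by -0.16 on its dimmer probe set. Of the 8 genes of this class, 4 were higher and 4 lower. Of its 17 probe sets 5 were higher and 12 lower (probe sets of 1 gene are not independent), and among all named probe sets above the floor 51.8% were lower.

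Among the enzymes of fatty and aromatic aldehydes, ALDH3B1, which oxidizes aldehydes from lipid peroxidation, had 6.77 in CD133+ cells and 6.02 in CD133- cells, a difference of 0.75. Its other probe sets differed by 0.39 and 0.07, and by MAS5 the signals of the first were 332 in CD133+ cells and 293 in CD133- cells, a difference of 0.18 on the log2 scale. The size of the ALDH3B1 difference thus varied more than that of any other gene here with several probe sets above the floor, with a gap of 0.68 between its probe sets. ALDH3A2, the fatty aldehyde dehydrogenase of the endoplasmic reticulum, had 10.57 in CD133+ cells and 10.78 in CD133- cells, and its 3 probe sets differed by -0.21 to -0.09. ALDH3A1, an inducible enzyme of aromatic aldehydes, had 4.99 on both arrays, and ALDH3B2 lay below the floor, at 2.53 in CD133+ cells and 2.22 in CD133- cells.

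**Figure D4:**
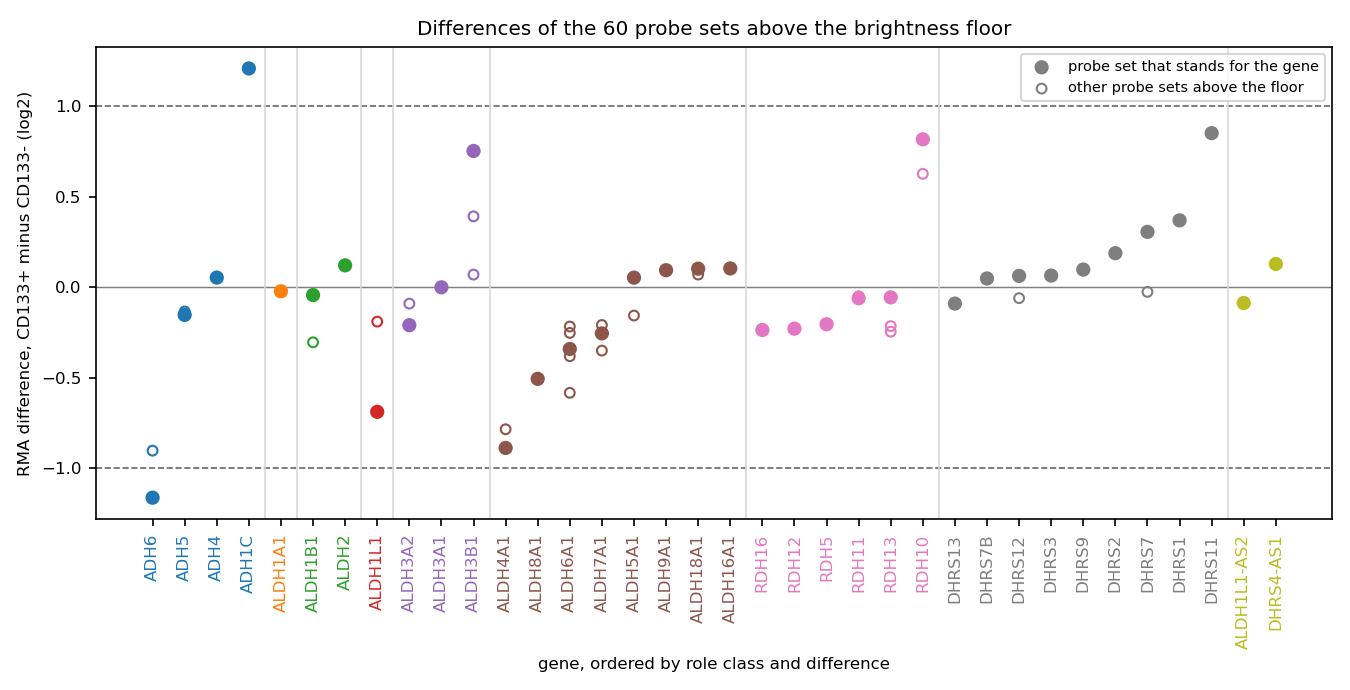
RMA difference CD133+ minus CD133- (vertical axis, log2) of the 60 probe sets above the brightness floor, by gene and role class (horizontal axis), with the probe set that stands for a gene filled, the others open, and 2-fold dashed at 1 and -1. Of the 16 genes with several probe sets, 13 have all of them on the same side of 0. Only ADH1C lies above 1 and only ADH6 below -1.

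Of the retinol dehydrogenases, 1 stood out. RDH10, the enzyme that oxidizes retinol to retinal and sets the pace of retinoic acid synthesis in mouse embryos, had 8.97 in CD133+ cells and 8.16 in CD133- cells, a difference of 0.82 (1.76-fold higher). Its other measured probe sets had differences of 0.63 and 0.82. The MAS5 signals of the first probe set were 2149 in CD133+ cells and 1215 in CD133- cells, a difference of 0.82 as well. On that probe set the value was thus nearly the same on both scales. The other measured probe sets differed by 0.64 and 0.41 by log2 MAS5, in the same order. The last RDH10 probe set was below the floor on both arrays.

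The other 5 measured retinol dehydrogenases had differences between -0.24 and -0.06. RDH11, which reduces retinal back to retinol, had 10.95 in CD133+ cells and 11.02 in CD133- cells. RDH13, its mitochondrial relative, differed by -0.06, and its other probe sets above the floor by -0.24 and -0.21. RDH16, a microsomal retinol dehydrogenase of liver, had 5.01 in CD133+ cells and 5.25 in CD133- cells, and RDH5, known from the pigment epithelium of the eye, had 6.21 in CD133+ cells and 6.42 in CD133- cells. RDH12, a photoreceptor enzyme, was near the floor, at 4.85 in CD133+ cells and 5.08 in CD133- cells, and RDH8, also of photoreceptors, was below it at 4.46 in CD133+ cells and 4.58 in CD133- cells. Except for RDH10, the differences lay within 1.5 times the scatter of 0.17 between probe sets.

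In the DHRS family 8 of the 9 measured genes were higher in CD133+ cells, against 45.6% of all measured genes. Most of these differences were small, and the count is not read as an excess. DHRS11, a cytosolic reductase of ketosteroids, had 8.21 in CD133+ cells and 7.35 in CD133- cells, a difference of 0.85 (1.80-fold higher), with MAS5 signals of 1328 in CD133+ cells and 723 in CD133- cells. It is reported by a single probe set, of the kind that can match several transcripts. DHRS1, a reductase of the endoplasmic reticulum, had 8.31 in CD133+ cells and 7.94 in CD133- cells. DHRS7, another reductase of that membrane, differed by 0.31 on one probe set and by -0.03 on the other above the floor.

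The members of this family with a known role in retinoid metabolism were close to equal. DHRS3, which reduces retinal to retinol and is itself induced by retinoic acid, had 8.24 in CD133+ cells and 8.18 in CD133- cells. Its MAS5 signals ran the other way, at 868 in CD133+ cells and 923 in CD133- cells. DHRS9, which oxidizes retinol and hydroxysteroids, had 6.38 in CD133+ cells and 6.28 in CD133- cells. DHRS2, DHRS12 and DHRS7B, a peroxisomal enzyme of ether lipid synthesis, differed by 0.19, 0.06 and 0.05. The MAS5 signals of DHRS2, 23.5 in CD133+ cells and 17.4 in CD133- cells, were below the MAS5 floor. The other DHRS12 probe set above the RMA floor differed by -0.06. DHRS13 had 8.27 in CD133+ cells and 8.36 in CD133- cells, a difference of -0.09. DHRS7C, known from muscle, lay below the floor. Among the antisense RNAs, DHRS4-AS1 differed by 0.13 and ALDH1L1-AS2 by -0.09, against -0.69 for ALDH1L1 itself, and ALDH1A2-AS1 lay below the floor. The values in CD133+ and CD133- cells were 6.80 and 6.67 for DHRS4-AS1 and 5.23 and 5.32 for ALDH1L1-AS2.

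Other genes of the retinoid pathway, listed by role, contained none at 2-fold. Among all measured genes 1.65% were at least 2-fold higher and 0.116% at least 2-fold lower. With only 14 measured genes in the list, too few to read a count against such shares, no conclusion is drawn from this. Of 14 measured carriers, receptors, esterifying and clearing enzymes, 7 were higher and 7 lower, with a median difference of 0.02. TTR, which carries the retinol-binding protein in plasma, had the largest difference, with 12.78 in CD133+ cells and 12.23 in CD133- cells. CYP26B1, which degrades retinoic acid, had the lowest, at -0.24. RARB, a receptor gene that retinoic acid induces in many cells, differed by -0.07, and STRA6, the cellular retinol importer, by 0.36. LRAT, which stores retinol as esters, and CYP26A1 were below the floor.

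Another 5 measured genes act in other ethanol and acetate steps, too few to read a count at 2-fold against the same background. Catalase (CAT), which can oxidize ethanol, differed by -0.18, and the acetyl-CoA synthetases ACSS2 and ACSS1 by -0.25 and 0.15. CYP2E1, the inducible microsomal ethanol oxidase, lay below the floor, at 4.31 in CD133+ cells and 3.58 in CD133- cells.

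A list of 15 measured carbonyl reductases and oxidases of other families held 2 genes at least 2-fold higher in CD133+ cells and 0 lower. Among all measured genes the shares were 1.65% and 0.116%. The list was chosen with earlier results of these data known, so the count is not read as an excess. The median difference was 0.07 in the list and -0.01 over all measured genes. AOX1, the molybdenum-containing aldehyde oxidase that can also oxidize retinal, had 7.47 in CD133+ cells and 5.37 in CD133- cells, which is 4.31-fold higher. Its other probe set had 5.57 in CD133+ cells and 4.45 in CD133- cells, at least 1.64-fold higher. AKR1B10, an aldo-keto reductase that reduces retinal and is often raised in liver cancer, had 7.54 in CD133+ cells and 6.22 in CD133- cells, 2.50-fold higher, with MAS5 signals of 1019 in CD133+ cells and 322 in CD133- cells. The lowest of the list was AKR1C1, a hydroxysteroid dehydrogenase, at -0.49, with its close copy AKR1C2 at -0.43.

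By MAS5 the picture of the dehydrogenases was the same in direction for the larger differences. The sign matched in 29 of the 36 genes, against 9737 of all 12899 measured genes, and both scales summarize the same arrays. In the other 7 of the 36 the RMA difference was at most 0.10 in size. Counted over probe sets by RMA, 1 of the 60 above the floor was at least 2-fold higher and 1 lower, against 1.3% and 0.0821% of all named probe sets above it. In the MAS5 signals as measured, 1 of the 63 member probe sets above the MAS5 floor was at least 2-fold higher (ADH1C), against 4.25% of all such probe sets. Another 4 were at least 2-fold lower, those of ADH6, ALDH4A1, ADH1A and ADH1B named above, against 2.1% of all such probe sets. The CD133+ signals of ADH1A and ADH1B, 50.3 and 39.2, were under the MAS5 floor of 91.8, so these genes were at least 1.27-fold and at least 1.30-fold lower in CD133+ cells by MAS5. With the floor in place of signals below it, 1 probe set was 2-fold higher (ADH1C), against 2.11% of all such probe sets, and 2 were 2-fold lower (ADH6 and ALDH4A1), against 0.522%.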

How the data were processed

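Huh7 cells were sorted into CD133+ and CD133- populations, and total RNA was amplified, labelled with biotin and hybridized, per the labels' protocols. The 4 deposited columns were taken as 1 array per population, because per the labels the samples of a population differ only in the algorithm. MAS5 and RMA values were never treated as replicates. The deposited MAS5 values are linear intensities, 1 for each probe set, with a trimmed mean of 500.1 on both arrays (2% trimmed from each end). RMA values were deposited by the authors as log2, per the labels and their range. Per the submitters' processing notes the tools were MAS5, RMA and GCOS, with no version given. Which program ran RMA, and over which arrays, is not given in the sources used here. RMA gives both arrays near-equal distributions, so a global shift would be hidden.

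With pandas 2.3.3 under Python 3.11, each probe set's CD133- value was subtracted from its CD133+ value on the log2 scale. The platform annotation gave exactly 1 symbol to 41097 probe sets, and 41043 of these matched GRCh38.p14 by Entrez number, which updated the symbols. The brightness floors were 4.86 (RMA) and 91.8 (MAS5), the medians over probe sets of the brighter value. "At least" folds use the floor for the dimmer value. With 1 array per population no test was made, and the number of arrays limits the precision. Every member gene above the floor is named. Values on both arrays are given for genes with a difference of at least 0.5 on any such probe set, for alcohol, retinal and acetaldehyde dehydrogenases, and for the extremes of each role class, and for others by role. The members and lists were chosen with earlier results of these data known. Listed pathway and marker genes are counted only where a probe set carries their symbol alone. Alternatives were MAS5, the mean over probe sets, exclusion of probe sets that can match several transcripts, centring, other floors and a 1.5-fold limit. Setting values below the floor to the floor was an alternative added after the data were seen.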

Additional observations from a re-analysis of the deposited data

How the results depend on the processing

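The counts at 2-fold rest on 1 gene in each direction and changed with several choices. With a higher floor (6.79), or with both arrays required above the floor, 0 genes were higher, because the CD133- value of ADH1C was below the floor and its CD133+ value below 6.79. Without probe sets that can match several transcripts 0 genes were lower, because both ADH6 probe sets are of that kind. With RMA values below the floor set to it, a choice added after the data were seen, 0 genes were higher and 1 lower. In the MAS5 signals as measured 4 genes were lower, and 5 probe sets in place of 2 passed in either direction, but the CD133+ signals of ADH1A and ADH1B were below the MAS5 floor. With such signals set to it, 2 genes were lower and 3 probe sets passed. At 1.5-fold 4 genes were higher and 3 lower. The counts stayed at 1 and 1 with the mean over probe sets, with centring, with no floor and when both algorithms had to pass. The median difference over measured genes was 0.024 as reported and with both arrays above the floor. By MAS5 it was -0.068 over the genes above the MAS5 floor, which include ADH1A and ADH1B, and 0.006 over the genes above the RMA floor. It was -0.061 without probe sets that can match several transcripts and -0.011 with the mean over probe sets and with no floor. With the higher floor it was 0.013, and after centring 0.034. Of 130 recomputed differences of the 36 measured genes, 116 moved by less than the scatter of 0.17 between probe sets and 14 by more. Many could hardly move, so the 116 are not read as stability. Centring on the median of -0.01 shifted all genes alike, and the mean could change only the 16 genes with several probe sets above the floor. By MAS5, ADH1C, ADH4, ADH6, ALDH1B1, ALDH1L1-AS2, ALDH3B1, ALDH4A1, ALDH7A1, DHRS1, DHRS9 and RDH12 moved by more. The sign differed in 8 of the 130, those of ADH4, ALDH16A1, ALDH1A1, ALDH1L1-AS2, DHRS3 and RDH11 by MAS5, of ALDH5A1 with the mean over probe sets, and of ALDH3A1, at 0 as reported, after centring. The cause was not tested. The number of arrays and the signal near the floor limit these values.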

Other observations

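Probe sets annotated with several symbols were left out of the members, and 3 of them include a dehydrogenase of this kind. The probe set shared by DHRS4 and DHRS4L2 had RMA values of 8.81 in CD133+ cells and 8.88 in CD133- cells. That of RDH14 and its read-through transcript with NT5C1B had 8.21 in CD133+ cells and 8.10 in CD133- cells, and that of RDH5 and its read-through with BLOC1S1 had 7.46 in CD133+ cells and 7.34 in CD133- cells. The difference on this RDH5 probe set was 0.12, against -0.20 on the probe set of RDH5 alone.

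ALDH3A1 and DHRS7C had exactly the same RMA value on both arrays. This occurred for 4210 of all probe sets (7.70%) and for 418 of the 12899 measured genes, and for 0 probe sets by MAS5. The value of ALDH3A1 was found 58 times among the RMA values of both arrays, and that of DHRS7C 25 times. The median of the brighter MAS5 signal over the tied probe sets was 38.3, below the MAS5 floor. Why the RMA values repeat was not tested, and a difference of 0.00 in such a probe set is not evidence that its transcript was equal.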
